A study of Mus musculus with 3 samples.

Results

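Genes of the extracellular matrix and of its cell surface receptors were examined in otic placode ectoderm, the patch of embryonic head surface that forms the inner ear. The set was chosen by gene name in the array files: every laminin chain (Lama, Lamb, Lamc), nidogen (Nid), collagen (Col), integrin alpha or beta chain (Itga, Itgb) and hyaluronan synthase (Has) with a number in its name, plus fibronectin (Fn1), perlecan (Hspg2) and versican (Vcan). The names matched 166 probes of 83 genes, and 93 of these probes, for 60 genes, were well above the local background on all 3 arrays in at least 1 of the channels. These 60 genes were part of 16842 genes tested. No probe carried the name Vcan or Hspg2, although 5 probes carried Cspg2, an older name of Vcan, and they are given separately. Of the 60 genes, 5 encode no matrix protein, receptor chain or enzyme of this kind and matched by name only, so that 55 matrix, integrin and synthase genes of 78 matched were measured.

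The mouse embryos were at 4 to 8 somites and were untreated. Both genotypes carried null alleles of the fibroblast growth factor genes Fgf3 and Fgf10: the Fgf3-/-;Fgf10-/- embryos (double null) had no working copy of either gene, and the Fgf3+/-;Fgf10+/- embryos (double heterozygote) had 1 of each, so that no group was wild type. Dissected placodes were pooled by 10, with 3 pools of each genotype as biological replicates, and each of 3 arrays compared 1 pool of each genotype. The double null was labelled with Cy5 and the double heterozygote with Cy3 on every array, so that dye and genotype cannot be told apart for any single probe. The strain, the extent of the deleted sequences and whether the placodes of a pool came from different litters were not stated in the sources read for this work.

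Laminins, nidogens and type IV collagens assemble into the basement membrane under an epithelium such as the placode, while fibrillar collagens and fibronectin fill the tissue beneath it. Integrins are receptors made of an alpha and a beta chain that tie cells to these proteins. Hyaluronan is a long sugar polymer made at the cell membrane by the Has enzymes, and it hydrates the spaces between cells and around folding epithelia, including those of the developing ear. Versican is a large proteoglycan that binds hyaluronan. The comparison addresses which of these genes depend on FGF signals from Fgf3 and Fgf10 during placode formation.

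The results turned on a few probes, single DNA strands of 60 bases on the array, and on how the probes of a gene differed. The probes of Has2 and Itgb3 are shown first because each gene had 2 probes that passed the background filter and gave unlike values. The printed stretch is 30 bases of each probe, 5′ to 3′, and capitals mark the letters AATAAA in the first Has2 probe and a run of GT repeats in the first Itgb3 probe.
Has2 probe 1: acaccctgacAATAAAtgaaactaaaactt
Has2 probe 2: ggtgtatttccgtggaatgagctaaaacac
Itgb3 probe 1: aggacaatttGTGTGTGTGTGTatgggtgg
Itgb3 probe 2: ccacagcaacatcagagtctttgtccattt

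In the mouse build mm7, as the files place them, the Has2 probes lie on the minus strand at chr15:56729040-56729099 and chr15:56755204-56755263, 26.2 kb apart, the first on the 3′ side of the second. The Itgb3 probes lie on the plus strand at chr11:104776217-104776287 and chr11:104779399-104779458. AATAAA, the core of the usual polyadenylation signal, was present in 4.71% of the probes that passed, and its opposite strand in 3.93%. Whether each probe lies in an exon, an untranslated region or an intron was not analysed here.

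Values below are log2 ratios of double null over double heterozygote, where 0 means equal intensity, given in the order of arrays 1, 2 and 3. Means carry their moderated standard error (SE, n = 3 arrays). The adjusted p is limma's, corrected by Benjamini-Hochberg across the 16842 genes tested, and values under 0.05 are said to pass the threshold. The normalised log2 intensity of a probe in each pool is given as its level, is open to dye bias without swapped dyes, and was compared only within a probe.

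The tissue label and the targeted genes were checked first. Of 9 markers of otic and surface ectoderm, 7 were well above background and Pax2 and Foxi3 were not. The Fgf3 probe had a ratio of -0.48 ± 0.13 with limma adjusted p = 0.11, and the Fgf10 probe 0.14 ± 0.09 with adjusted p = 0.368, so neither passed, and where these probes lie relative to the deleted sequence was not analysed here. With loess normalisation all 7 measured ectoderm markers had mean ratios below 0, with a median of -0.14, and their mean log2 level ranged from 12.3 to 12.5 in the double heterozygote pools and from 12.1 to 12.4 in the double null pools. Markers of cranial mesenchyme (7 of 8 measured) had a median of 0.11, and those of endothelium and blood (5 of 8 measured, without Pecam1, Tie1 and Gata1) a median of 0.67, with array medians of 1.16, -0.02 and 0.18. None of the markers of these 3 lists passed the threshold. In pooled tissue, fewer cells of a type and less RNA per cell cannot be told apart.

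Few matrix and integrin genes differed between the genotypes. The integrin gene Itgb3 was the only 1 of the 60 genes to pass the threshold, as higher in the double null at its brighter probe. None passed in the other direction. The second Itgb3 probe, at 0.10, did not pass (limma adjusted p = 0.395 in the fit of single probes). The brighter probe carries a run of GT repeats, and other probes with such runs were also higher in the double null, as described below. Over all genes tested, 2.44% passed, 1.89% higher and 0.552% lower in the double null, so the share in the set was near that background. An unadjusted p under 0.05 was found for 10 of the 60 genes, against 22.2% of all genes. With plain median centring in place of loess, 36 of the 60 were called higher and 7 lower, where 70.6% and 8.62% of all genes were called.

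The ratios of the set were small and centred near 0. Mean ratios ran from -0.33 (Has2) to 0.35 (Itgb3), with 27 above and 33 below 0. Their median was -0.0046, beside 0.0063 over all genes, and the array medians were -0.0058, 0.02 and -0.04. The median size of a ratio without its sign was 0.070 in the set and 0.075 over all genes.

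Neither a common direction over the arrays nor separate levels were more frequent in the set than over all genes. A ratio of the same sign on all 3 arrays was seen for 25 of the 60 genes, against 45.7% of all genes, and levels of the genotypes did not overlap for 8 of the 60, against 17.7%. At the brightest probe of each gene, the 95% interval of the mean ratio lay within a 1.5-fold change in either direction for 59 of 60 genes. It did so for 97.7% of all genes. The exception in the set was the collagen gene Col1a1, with an interval of -0.65 to 0.03. Dimmer probes are not part of this count, and the second Has2 probe, at -0.72 or a fold of 0.608, lay beyond a 1.5-fold change. In simulated ratios for all 16842 genes, 89 of 100 genes set to differ by 0.5 on the log2 scale were called, as were 100 of 100 set to differ by 1. The simulated ratios were normal, with the spread that the fit itself assumes, and held no dye, sequence or array effects. They therefore do not give the share of such changes that the real arrays would call.

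**Figure D1:**
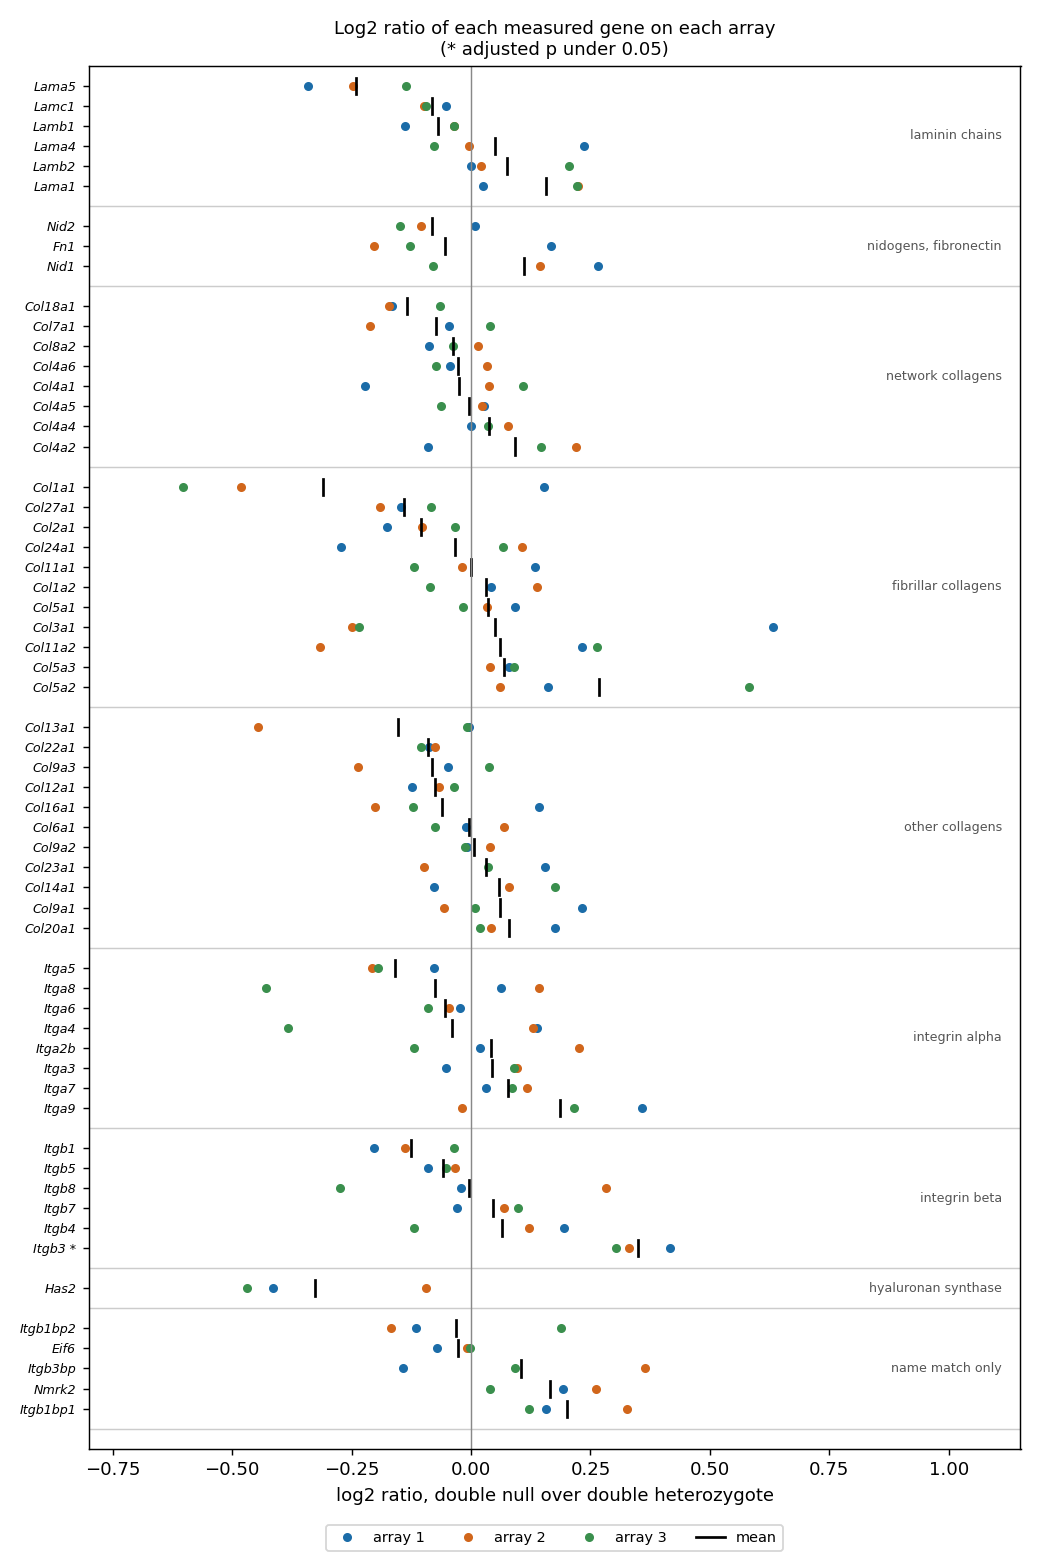
Log2 ratio of double null over double heterozygote for 59 of the 60 measured genes, grouped by role, with 1 point per array and a bar at the mean; an asterisk marks an adjusted p under 0.05. Most means sit close to 0, Itgb3 alone is marked at 0.35, and Has2 has the lowest mean at -0.33 with these loess-normalised ratios, which is 0.26 with median centring.

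Among the hyaluronan genes, Has2, the main hyaluronan synthase of the early embryo, was the only synthase well above background. The levels of its first and brighter probe were 13.48, 13.30 and 13.88 in the double heterozygote pools and 13.06, 13.20 and 13.41 in the double null pools. The double null pool was the lower on each array, but the pools of the genotypes overlapped. The ratios of -0.41, -0.09 and -0.47 gave a mean of -0.33 ± 0.08, a fold of 0.798, which missed the threshold with limma adjusted p = 0.0985.

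The second Has2 probe gave a larger difference. Its levels were 12.45, 12.27 and 12.79 in the double heterozygote pools and 11.74, 11.75 and 11.87 in the double null pools. Every double null pool lay below every double heterozygote pool. When each of the 25506 probes was fitted separately, this probe fell by 0.72 ± 0.08 on the log2 scale, a fold of 0.608, with limma adjusted p = 0.0115, where 1.51% of all probes passed. Its array ratios were -0.71, -0.52 and -0.92.

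The decrease at this second probe was the only one among the 93 probes of the set to pass. It was no longer past the threshold with the scanner's processed signals (-0.73, adjusted p = 0.207), with a narrower loess (-0.71, adjusted p = 0.0593), among probes of mean log2 intensity up to 15 (adjusted p = 0.0638) or without array 3 (-0.62, adjusted p = 0.0624). The 2 probes averaged to -0.52 with adjusted p = 0.0414 in the gene fit. With plain median centring, which moved the median of all genes to 0.37, the first probe changed sign to 0.26 and the second stayed negative at -0.23. Both remained under that median, but the move was not the same for every probe. The second Itgb3 probe, for example, went from 0.10 to -0.13. The 7 measured ectoderm markers had a median ratio of -0.14, and their part in the Has2 result was not tested.

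**Figure D2:**
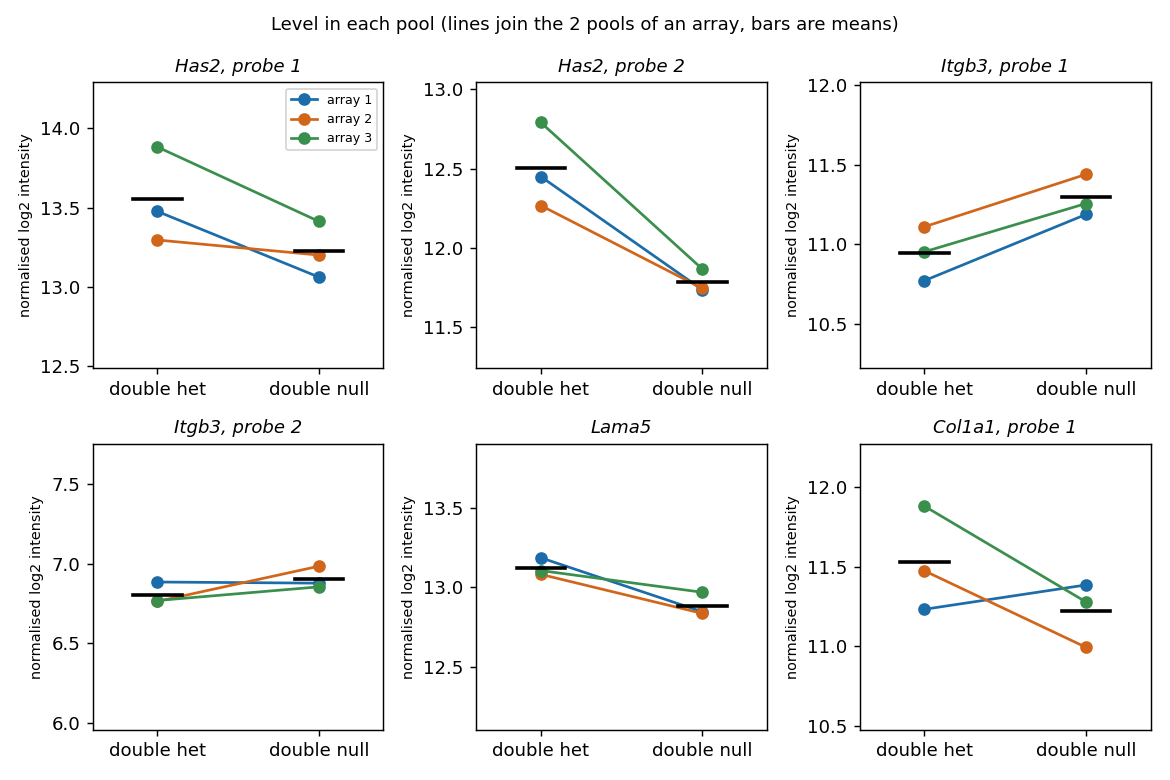
Normalised log2 intensity in each pool for 6 probes, double heterozygote on the left and double null on the right; lines join the 2 pools of an array, bars are group means, and each panel spans the same range. The groups are apart for Has2 probe 2, Itgb3 probe 1 and Lama5, and overlap for Has2 probe 1, Itgb3 probe 2 and Col1a1; with plain median centring the mean ratio of Has2 probe 1 and of Lama5 turns positive, at 0.26 and 0.31.

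The other hyaluronan genes gave no call. The synthase genes Has1 and Has3 were not well above background on any array. The brightest versican probe had ratios of -0.02, -0.16 and -0.19 and a mean of -0.12 ± 0.05 (limma adjusted p = 0.25), while the other 2 versican probes that passed had means of -0.04 and 0.12. Of 11 measured genes for the binding and turnover of hyaluronan, none passed the threshold, and their median was -0.03. An unadjusted limma p under 0.05 was found for 3 of the 11, against 22.2% of all genes. Hyal2, a cell surface hyaluronidase, was at -0.21 ± 0.05 with adjusted p = 0.0837, and Cd44, the main hyaluronan receptor, at -0.10 ± 0.05 with adjusted p = 0.304.

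Of the 6 measured integrin beta chains, 1 passed. Itgb3 pairs with the alpha chains Itgav and Itga2b to bind fibronectin, vitronectin and fibrinogen. The levels of its brighter probe were 10.77, 11.11 and 10.95 in the double heterozygote pools and 11.19, 11.44 and 11.26 in the double null pools. Every double null pool was above every double heterozygote pool. The ratios of 0.42, 0.33 and 0.30 gave a mean of 0.35 ± 0.05, a fold of 1.27, with limma adjusted p = 0.0255.

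The call on Itgb3 rested on this probe and on all 3 arrays. The second Itgb3 probe had ratios of -0.0071, 0.22 and 0.09 and a mean of 0.10 ± 0.06, with limma adjusted p = 0.395 in the fit of single probes. Leaving out array 1, 2 or 3 gave means of 0.32, 0.36 and 0.37 with adjusted p = 0.0825, 0.0906 and 0.129. With the scanner's processed signals, when no gene of the 16842 passed in limma and 3218 had an unadjusted p under 0.05, it was 0.36 with adjusted p = 0.172. Over all alternatives the Itgb3 ratio stayed between 0.23 and 0.79, with adjusted p between 0.000124 and 0.266. Its partner Itgav, which the name rule did not take in, was at -0.16 ± 0.06 (adjusted p = 0.178), with 0.0019 at its other probe, and Itga2b was at 0.04 ± 0.07 (adjusted p = 0.771).

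The brighter Itgb3 probe carries 6 GT units in a row, printed above in capitals, and other probes with such runs were also higher in the double null. This was noticed after the Itgb3 values were seen and is given as a description. The other 13 passing probes with 5 or more GT units, 0.051% of all passing probes, had a median ratio of 0.39, against 0.010 over all probes. Of these, 12 were above 0 and 10 passed the threshold, or 76.9%. The 51 probes with a longest run of 4 units had a median of 0.17 and 21.6% of them passed, and the 499 with 3 units had a median of 0.04 and 2.40% passed.

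Probes with runs of other letters had medians near 0. Probes with 5 or more CA units, the same repeat on the opposite strand, numbered 6, with a median of -0.0024 and none past the threshold. The 9 probes with GA runs of that length had a median of -0.02 and the 5 with AT runs 0.03, and none of these passed either. With the scanner's processed signals the median of the 13 GT probes was 0.41.

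For 9 genes the array carried both a probe with 5 or more GT units and other passing probes without, 16 in all. The probe with the run was the higher for 8 of the 9 genes, by a median of 0.34 over the 9. The exception was Dgcr2, at -0.08 with the run and at a mean of -0.06 for its other probes. The stretches below are from 3 of the 9 genes, shown to set their runs, in capitals, beside that of Itgb3. They are 30 bases of each probe, 5′ to 3′.
Junb: agatgtgtttGTGTGTGTGTGTttgacttt
Stag2: tttGTGTGTGTGTcttcttggtgcttgaac
Bcorl1: tcttttaactGTGTGTGTGTGTtttgttcc

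In the files these probes lie at chr8:83563059-83563118 on the minus strand and, on the plus strand, at chrX:37304204-37304263 and chrX:43499948-43500007 of mm7. The Junb probe with the run, for a transcription factor gene, was at 0.39 and the gene's other probe at 0.05. The Stag2 probe with the run, for a cohesin subunit gene, was at 0.69 against a mean of 0.08 for the others. The Bcorl1 probe with the run, for a transcriptional corepressor gene, was at 0.41 and its other probe at -0.03. The Itgb3 pair, at 0.35 and 0.10, differed in the same direction as 8 of the 9 genes, these 3 among them. What part the run had in the Itgb3 result was not tested. No other member probe that passed had a run of more than 3 GT units, and the 4 with 3 units, from Itgb3bp, Itgb5, Col1a1 and Itgb1bp2, had means between -0.06 and 0.04.

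**Figure D3:**
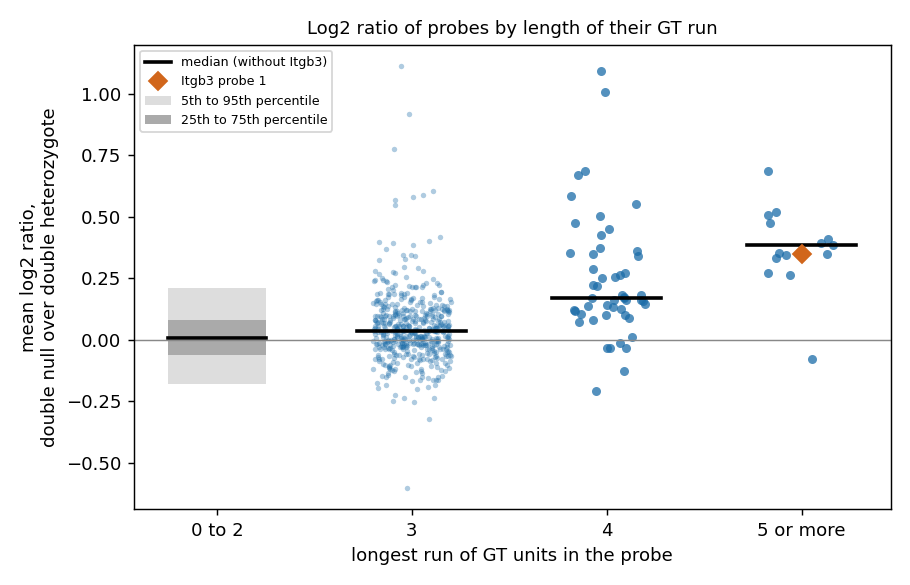
Mean log2 ratio of double null over double heterozygote by the longest run of GT units in a probe; points are probes, black bars are medians without the Itgb3 probe, and the grey boxes at 0 to 2 units give percentiles of 24942 probes. Medians are 0.04 at 3 units, 0.17 at 4 and 0.39 at 5 or more, and the Itgb3 probe at 0.35 sits among the last.

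The remaining beta chains did not pass. Itgb1, the partner of most alpha chains, had ratios of -0.20, -0.14 and -0.04 and a mean of -0.13 ± 0.05 (limma adjusted p = 0.239); its levels did not overlap between genotypes, and its second probe was at 0.07. Itgb5, a partner of Itgav, was at -0.06 ± 0.05 with adjusted p = 0.503. Itgb4, which pairs with Itga6 in hemidesmosomes, Itgb7, a leukocyte chain, and Itgb8, another partner of Itgav, had means of 0.07, 0.05 and -0.0044. Itgb8 varied most among arrays, with ratios of -0.02, 0.28 and -0.27.

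None of the 8 measured alpha chains passed, and their median ratio was 0.0013. Itga5, which with Itgb1 forms the main fibronectin receptor, had ratios of -0.08, -0.21 and -0.19 and a mean of -0.16 ± 0.05, with limma adjusted p = 0.156. Its double null levels of 7.53, 7.50 and 7.37 lay just below the double heterozygote levels of 7.61, 7.70 and 7.56. Itga6, a laminin receptor chain of epithelia, was at -0.05 ± 0.05 (adjusted p = 0.545), and its 3 probes spread over 0.02. Itga7, another laminin receptor chain, was at 0.08 ± 0.05 (adjusted p = 0.384), with levels that did not overlap.

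Other alpha chains differed among the arrays. Itga8, the receptor chain for nephronectin, had ratios of 0.06, 0.14 and -0.43 (mean -0.07 ± 0.11, adjusted p = 0.726), and its second probe gave 0.10, 0.12 and -0.38, so that both probes were lower in the double null on array 3 only. Itga4, a fibronectin receptor chain of migrating cells named here after its values were seen, showed 0.14, 0.13 and -0.38. Itga9, which binds tenascin, was at 0.19 ± 0.08 (adjusted p = 0.231); that fitted probe carries a clone name in the files, and the probe named Itga9 was at 0.16. Itga3, a laminin receptor chain, was at 0.04 ± 0.05.

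Of 11 laminin chain genes, 7 were measured, none passed, and their median ratio was -0.07. Lama5 encodes the alpha chain found in most epithelial basement membranes. Its levels were 13.19, 13.08 and 13.11 in the double heterozygote pools and 12.85, 12.84 and 12.97 in the double null pools. The pools did not overlap. The ratios of -0.34, -0.25 and -0.14 gave a mean of -0.24 ± 0.06, a fold of 0.846, with limma adjusted p = 0.0900, which missed the threshold. With plain median centring the mean was 0.31, again under the median of 0.37 of all genes, which is no exact reference for a single probe.

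The chains that join alpha chains in most laminins differed little, and none passed. Lamc1, the common gamma chain, had ratios of -0.05, -0.10 and -0.09 and a mean of -0.08 ± 0.05 (limma adjusted p = 0.356), with a 95% interval of -0.20 to 0.03. Its levels did not overlap between genotypes. Lamb1, the common beta chain, was at -0.07 ± 0.05 (adjusted p = 0.453), with an interval of -0.19 to 0.05. Lamb2, its alternative in many mature basement membranes, was at 0.08 ± 0.06.

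Lama1, the alpha chain of the earliest embryonic basement membranes, lay on the other side of 0 from Lama5. Its levels were 10.86, 10.29 and 10.53 in the double heterozygote pools and 10.88, 10.51 and 10.75 in the double null pools, which overlapped. The ratios of 0.02, 0.22 and 0.22 gave a mean of 0.16 ± 0.06 with limma adjusted p = 0.199, and its second probe was at 0.04. Lama4, a chain found around vessels, had ratios of 0.24, -0.0048 and -0.08. Lama2, Lama3, Lamb3 and Lamc3 were not well above background on all arrays.

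The linkers Nid1 and Nid2 join laminin to type IV collagen, and neither passed. Nid1 had ratios of 0.27, 0.14 and -0.08 (mean 0.11 ± 0.07, limma adjusted p = 0.421) and Nid2 0.0087, -0.11 and -0.15 (mean -0.08 ± 0.05, adjusted p = 0.411). Fn1, fibronectin, had ratios of 0.17, -0.20 and -0.13 and a mean of -0.05 ± 0.08 (adjusted p = 0.715). Its probe was spotted 10 times on each array, and the spots varied with an SD of 0.06, 0.02 and 0.02, less than the arrays did (SD 0.20).

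Of 12 genes for network and basement membrane collagens, 8 were measured, none passed, and their median was -0.03. Col4a1 and Col4a2, the paired chains of the common type IV collagen, were both lowest on array 1, with ratios of -0.22, 0.04 and 0.11 for the first and -0.09, 0.22 and 0.15 for the second. Their means were -0.03 ± 0.07 and 0.09 ± 0.07. Col4a6 was at -0.03 ± 0.05 (limma adjusted p = 0.776), and Col4a4 and Col4a5 at 0.04 and -0.0044. Col18a1, the brightest probe of the set and the gene for the basement membrane collagen that releases endostatin, had ratios of -0.16, -0.17 and -0.07 and a mean of -0.13 ± 0.05 (adjusted p = 0.194), with -0.0077 at its second probe. Col7a1, the anchoring fibril collagen, was at -0.07, and Col8a2 at -0.04.

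All 11 fibrillar collagen genes were measured, none passed, and their median was 0.03. Col1a1, a chain of type I collagen, had levels of 11.23, 11.47 and 11.88 in the double heterozygote pools and 11.39, 10.99 and 11.28 in the double null pools. The double null was the higher on array 1 and the lower on arrays 2 and 3. The ratios of 0.15, -0.48 and -0.60 gave a mean of -0.31 ± 0.14 with limma adjusted p = 0.258; without array 1 it was -0.54 with adjusted p = 0.0132. The 10 spots of this probe varied by an SD of 0.02 to 0.03 on each array, so the difference among arrays was larger than that among spots, and the second, much dimmer Col1a1 probe was at -0.02.

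Other collagens of connective tissue also differed among arrays. Col3a1, which forms fibrils with type I collagen and is named here after its values were seen, had ratios of 0.63, -0.25 and -0.23. Col1a2, the partner chain of Col1a1, had 0.04, 0.14 and -0.09. The mesenchyme markers had array medians of 0.24, -0.07 and 0.16, with mean log2 levels from 10.7 to 10.8 in the double heterozygote pools and from 10.6 to 11.1 in the double null pools. Their part in the values of these 3 collagens was not tested.

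Col5a2, a chain that sets fibril width, had ratios of 0.16, 0.06 and 0.58 and a mean of 0.27 ± 0.10 (limma adjusted p = 0.198), while its partner chain Col5a1 was at 0.04 ± 0.05 (adjusted p = 0.696). Col27a1, a collagen of early cartilage, had ratios of -0.15, -0.19 and -0.08, all below 0, but its mean of -0.14 ± 0.05 did not pass (adjusted p = 0.176). Col2a1, the main cartilage collagen, which the otic region also makes, was at -0.10 ± 0.05 (adjusted p = 0.296), and its other probe, spotted 10 times, at -0.10. The other fibrillar chains, Col11a1, Col11a2, Col24a1 and Col5a3, had means between -0.03 and 0.07.

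Of 17 genes for other collagens, 11 were measured, none passed, and their median was -0.0048. Col13a1, a transmembrane collagen of cell adhesions, had ratios of -0.0034, -0.45 and -0.0090, so its mean of -0.15 ± 0.10 (limma adjusted p = 0.389) came from array 2. Col22a1, a collagen of tissue junctions, had -0.09, -0.08 and -0.11 and a mean of -0.09 ± 0.05 (adjusted p = 0.314). Col16a1, a fibril-associated collagen, was at -0.06 ± 0.07 (adjusted p = 0.674), and Col20a1, of the same class, at 0.08 ± 0.05 (adjusted p = 0.434). The other 7, Col6a1, Col9a1, Col9a2, Col9a3, Col12a1, Col14a1 and Col23a1, had means between -0.08 and 0.06.

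The 5 genes that matched by name only did not pass either. Itgb1bp1, whose product binds the tail of Itgb1, was at 0.20 ± 0.06 (limma adjusted p = 0.13), with -0.13 at its other probe. Nmrk2, named Itgb1bp3 in the files, was at 0.16, Itgb3bp at 0.11, Itgb1bp2 at -0.03 and Eif6, named Itgb4bp in the files, at -0.03.

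Where a gene had several passing probes, the spread between them was mostly small, as were the ratios themselves. Of 24 such genes, 20 had probes within 0.2 of each other and none spread over 0.5 or more. The widest spreads were 0.39 for Has2, 0.34 for Itgb1bp1, 0.29 for Col1a1 and 0.25 for Itgb3. The sign was the same at every probe for 14 of the 24 genes. The median size of a ratio in the set was 0.070, so a spread under 0.2 says little about how well probes agree. No share over all genes with several probes is given.

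Genes were lost from the set mainly at the low end of intensity. Of the 83 matched genes, 23 were not well above background in either channel on all 3 arrays, and 13 of these on no array, among them Has1, Has3, Itga2, Itgb6 and Lamb3. The 7 genes that met the criterion on 2 arrays had mean log2 intensities from 6.57 to 6.70, and the 60 that met it on 3 ranged from 6.60 to 14.97. Col5a3, Col6a1 and Nmrk2 passed through the double null channel only.

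**Figure D4:**
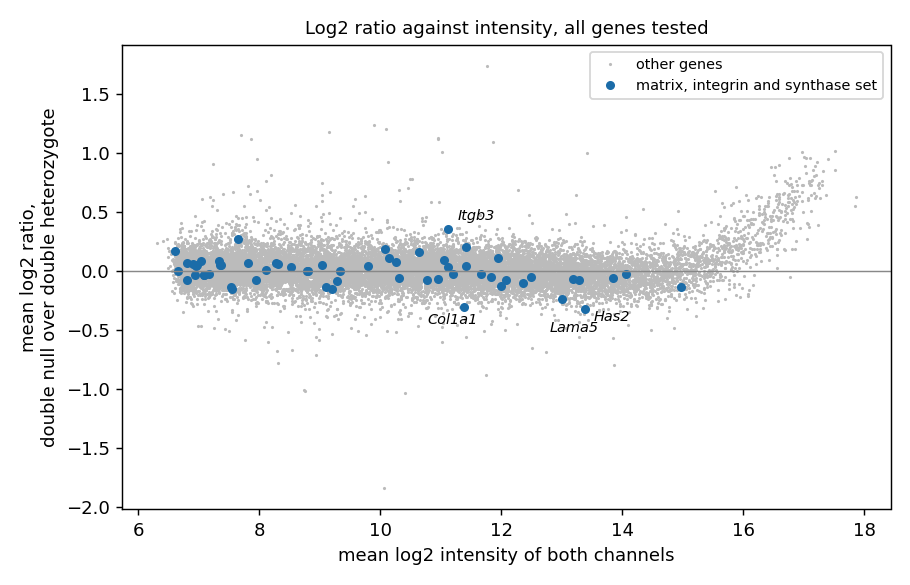
Mean log2 ratio of double null over double heterozygote against mean log2 intensity for all genes tested, with the 60 genes of the set in blue. Grey points bend upward above an intensity of 15, where no gene of the set lies. With loess normalisation Itgb3 is at 0.35, Has2 at -0.33 and Lama5 at -0.24. By size without sign, these ratios rank at percentiles 97.5, 97.0 and 93.5 of all genes, so many other genes lie further from 0. Plain median centring gives 0.26 for Has2 and 0.31 for Lama5.

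Other genes that build, cut or bind the matrix were listed by role. Of 29 other matrix proteins and proteoglycans measured, 3 passed, 2 higher and 1 lower, against 2.44% of all genes, and their median was -0.02. An unadjusted limma p under 0.05 was found for 11 of the 29, against 22.2% of all genes. Fbn1, fibrillin of elastic microfibrils, rose by 0.55 ± 0.08 (limma adjusted p = 0.0224), at a probe with 4 GT units, and its other probe was at 0.23. Smoc2, a secreted calcium-binding matrix protein, rose by 0.30 ± 0.05 (adjusted p = 0.0489), with 0.34 at its other probe, but was at -0.060 with median centring recentred on the tested genes. Lum, a small proteoglycan on collagen fibrils, fell by 0.50 ± 0.08 (adjusted p = 0.0363). Without array 3, when 0.404% of all genes passed, Fbn1 was at 0.56, Smoc2 at 0.26 and Lum at -0.48, with adjusted p = 0.150, 0.199 and 0.189. With the scanner's processed signals, when no gene on the array passed and 3218 had an unadjusted p under 0.05, they were at 0.62, 0.51 and -0.60.

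None of 14 genes for collagen processing, 14 for matrix proteases and inhibitors and 25 for integrin partners and focal adhesions passed, with list medians of -0.04, -0.02 and -0.0093. At an unadjusted p under 0.05 the counts were 5, 0 and 9, against 22.2% of all genes. Cd9, a membrane partner of integrins, had the lowest adjusted p of these, 0.0671, at -0.29 ± 0.06. Its other probe was at -0.10, with limma adjusted p = 0.389 in the fit of single probes. Markers of neural crest (5 of 5 measured) and hindbrain (5 of 5) had medians of -0.19 and -0.13 with none past the threshold. The 4 measured endoderm markers had a median of -0.11. Among them Sox17 fell by 0.54 ± 0.06 (limma adjusted p = 0.0139). Its other probe was at -0.36, with limma adjusted p = 0.0554 in the fit of single probes. Foxa2 at -0.09, Shh at -0.13 and Afp at 0.25 did not pass.

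**Figure D5:**
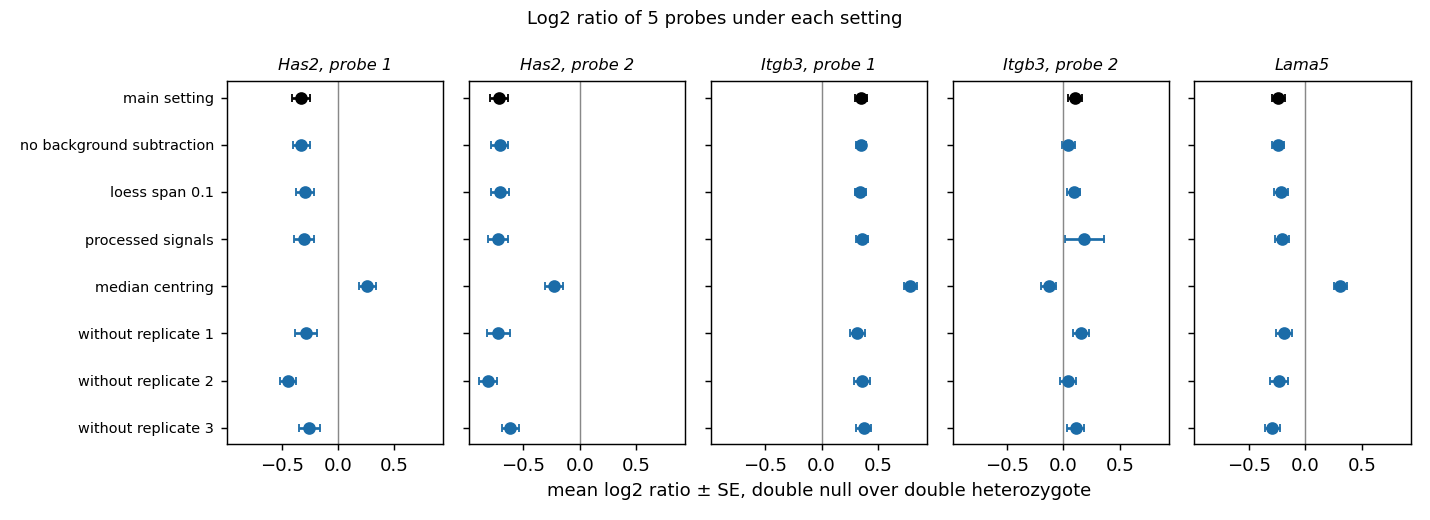
Mean log2 ratio ± SE of 5 probes under 8 settings of the processing or with an array left out, with the main setting in black. Itgb3 probe 1 stays above 0 and Has2 probe 2 below 0 throughout, while Has2 probe 1 and Lama5 turn positive and Itgb3 probe 2 turns negative with median centring.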

How the data were processed

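The authors extracted spot values of 3 Cy5 and Cy3 arrays with Agilent Feature Extraction 9.5.1.1, per the submitters' processing notes. For every spot and channel the deposited scanner files give the mean and the local background intensity; a further processed intensity is, per the file headers, corrected for background and dye. The authors' deposited log10 ratio in these files equals the log2 values of their series table within 2.01e-06 after conversion.

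Background was corrected with limma 3.58.1 (normexp, offset 50) in R 4.3.3, ratios were normalized by loess (span 0.3, control spots at weight 0), 143 to 175 outlier spots per array were left out, and spots of a probe were averaged. Median spot intensities were 110 to 129 in Cy3 and 227.5 to 242.9 in Cy5; no spot of the set was saturated, and precision is limited by having 3 arrays. A gene is its brightest passing probe, named through RefSeq (GRCm38.p6, names only). Ratios were tested against 0 with lmFit and eBayes. Levels per pool come from the normalized ratios after Aquantile scaling.

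The genes, lists and alternatives were chosen with earlier results of these data known. Named are genes past the threshold, the 3 brightest of each role, the 5 largest ratios of one sign each way, listed genes past the threshold, Itgav and Cspg2; others are named for completeness. The counts include 1 gene whose values are not reported here. The fit was checked on data simulated from its own model of spread, where 13 of 16642 unchanged genes were called. Alternatives varied background correction, normalization, filters, probe rule, variance prior, array weights, threshold, outlier spots, pairing and arrays; every probe fitted separately and recentred median centring were added after seeing the data.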

Additional observations from a re-analysis of the deposited data

How the results depend on the processing

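Itgb3 alone passed among the set in the main analysis, and the same 1 gene passed with no background subtraction, scale normalization, both channels above background, no filter, array weights and outlier spots kept. In these settings 1.29% (no filter) to 3.64% (no background subtraction) of all genes passed. The count was 0 with a normexp offset of 16 (1.35% of all genes passed), a loess span of 0.1 (0.143%), genes up to log2 intensity 15 (0.130%), processed signals and the deposited series table (0 of all genes in both, with 3218 and 3269 at an unadjusted p under 0.05), and separate channels with no replicate block (1.06%), where limma's Itgb3 adjusted p was 0.266 and 4 genes of the set had an unadjusted p under 0.05 (7 to 10 in the other 5 settings). The count was 1 with the mean of all probes (Has2), when 1.63% of all genes passed. It was 3 (Itgb3, Has2, Lama5) with an intensity trend (5.84% of all genes) and at adjusted p under 0.10 (6.63%). It was 2 with every probe fitted separately (Itgb3, Has2), when 1.51% of all probes passed. Without a replicate it was 0 to 1 (Col1a1 without 1, Has2 without 2). Of all genes, 1.64%, 1.31% and 0.404% passed without replicates 1, 2 and 3. Arrays pair 1 pool of each genotype, so the main fit already uses the pairing. Median centring gave 43 calls, 36 higher and 7 lower, when 79.3% of all genes passed, and a set median of 0.281 against 0.37 over all genes. After recentring on the tested genes, 52.8% of all genes passed, and 44.8% of those called were higher in the double null. In the set this gave 26 calls, 6 higher and 20 lower, and a median of -0.0845. The cause was not tested. With median centring these turned positive: Col16a1 0.33, Col18a1 0.63, Col22a1 0.21, Col2a1 0.40, Col4a1 0.44, Col4a6 0.42, Fn1 0.42, Has2 0.26, Itga6 0.46, Itga8 0.34, Itgb1 0.36, Itgb5 0.58, Lama5 0.31, Lamb1 0.50, Lamc1 0.50 and Nid2 0.41. After recentring, Col18a1 was at 0.26, Itgb5 at 0.21, Col20a1 at -0.44 and Itga7 at -0.34. Vcan turned to 0.25 with median centring, and Smoc2 to -0.060 after recentring. Sign changes of named genes that passed in neither setting are not listed. The lists of other matrix and adhesion genes held 11, 29, 14, 14 and 25 measured genes. Of these, 3 passed in the main analysis and 0 in each of the 6 settings above in which Itgb3 lost its call and the set had none. With an intensity trend 10 passed (5.84% of all genes), and at adjusted p under 0.10, 13 (6.63%). Without a replicate 0 to 2 passed (0.404% to 1.64% of all genes). With median centring 74 passed (79.3% of all genes), and after recentring 35 (52.8%). The set median ranged from -0.0158 to 0.0132 without a replicate and from -0.0251 to 0.0031 under the other alternatives. With 3 arrays and no swapped dyes, sizes between 0 and 0.5 on the log2 scale were not simulated, and genes below background have only a bound.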
